A study of Mus musculus with 11 samples.

Results

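The step from 48 h to 96 h after addition of 4-hydroxytamoxifen was followed in L-GMP cells, which are mouse leukaemia cells with the character of granulocyte-macrophage progenitors that express the fusion oncogene MLL-AF9. It was read from the 3 arrays titled as 96 h and the 4 titled as 48 h, chosen by title, which are 7 of the 11 arrays of the series. The other 4 arrays hold RNA taken at 0 h, before the compound was added, and show where each gene started. The study's design text gives 4 lines derived from leukaemic mice, and the deposited 96 h group has 3 arrays. In every group, 0 h included, the cells had the C57BL/6 background, carried MLL-AF9, floxed alleles of Jmjd2a, Jmjd2b and Jmjd2c (Kdm4a, Kdm4b and Kdm4c) and CreERT2 at the Rosa26 locus, and were kept in medium with the cytokine IL-3 at 10 ng/ml and with 20% serum. The 48 h and 96 h cells were grown with 500 nM 4-hydroxytamoxifen, which activates CreERT2, and the 0 h cells without it. Cells without floxed alleles, and untreated cells at 96 h, were not analysed here, so loss of the genes, drug, recombinase and time in culture cannot be told apart. The comparison asks what was added, and what was undone, once the floxed genes were already low.

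Kdm4a, Kdm4b and Kdm4c encode demethylases that remove methyl groups from histone H3 at lysine 9 and lysine 36. Granulocyte-macrophage progenitors give rise to neutrophils, which fill their granules in waves. Primary granule proteins such as myeloperoxidase are made first, secondary granule proteins such as lactoferrin at the myelocyte stage, and tertiary granule and secretory vesicle proteins last. Hypoxia-inducible factors, the subject of another gene group below, are stabilised when prolyl hydroxylases are inactive and bind a short DNA core, ACGTG, near genes of glycolysis, lactate export and mitophagy.

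All levels are scaled log2 signals: log2 of an array's processed spot intensity minus that array's 75th percentile, so 0 is the 75th percentile and 1 unit is 2-fold. A level belongs to its own probe and is not set against that of another gene. A gene was called when limma's adjusted p for 96 h against 48 h was under 0.05. This main fit did not pair the arrays. With the file-name number, which pairs them, as a block, 3051 genes were called, 2227 of them shared with the 2789 of the main fit. The groups held 3 or 4 arrays, and their number limits the precision. Of 17 measured genes of primary granules and the progenitor stage, 15 were well above background on all 11 arrays, among them Elane, Prtn3 and Ctsg.

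The arrays differed in ways that touch every value below. All 96 h arrays were on the second slide and in the second scan, and all 0 h and 48 h arrays on the first, so slide, scan and time cannot be told apart. Replicate 1 at 96 h stood apart, with 75.8% of spots well above background against 50.2% to 64.7% on the other 10 arrays. The 75th percentile of intensity was 229 to 294 on the 96 h arrays and 108 to 147 on the 48 h arrays. Without 96 h replicate 1, 988 genes were called in place of 2789. Of the 121 named genes that were called, 60 lost their call without this array, and its part in the results was not tested further. For 49 of the 121 the difference was over 1.5 times smaller in the authors' series table.

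By the probe that stood for each gene, the floxed genes were lower than at 0 h on both sides of the comparison. The Kdm4b probe read -1.63, -1.77, -1.93 and -1.76 at 48 h and -1.91, -1.65 and -1.59 at 96 h, so the groups overlapped (difference 0.05, SE 0.11, adjusted p = 0.792), after 1.53 ± 0.07 (SD, n = 4) at 0 h. The Kdm4c probe read -3.92, -3.67, -4.04 and -4.43 at 48 h, where only 2 of 4 arrays were well above background, and -3.57, -3.59 and -3.83 at 96 h (difference 0.35, SE 0.18, adjusted p = 0.246), after 0.93 ± 0.23 (n = 4) at 0 h. The brighter Kdm4a probe read 2.08, 1.97, 2.38 and 2.20 at 48 h and 2.60, 2.64 and 2.42 at 96 h, with every 96 h array above every 48 h array (difference 0.40, SE 0.14, adjusted p = 0.0964), after 3.75 ± 0.20 (n = 4) at 0 h. In the authors' series table this Kdm4a difference passed the threshold (0.35, adjusted p = 0.0492). A dimmer second Kdm4a probe was 1.23 lower at 96 h than at 48 h (adjusted p = 0.0313, over all probes). By this probe Kdm4a was not yet called lower at 48 h than at 0 h (-0.23, adjusted p = 0.593). Whether these probes lie in deleted exons was not tested.

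Between 48 h and 96 h, 1296 genes rose and 1493 fell of 25079 measured, which is 5.17% and 5.95%, or 11.1% in either direction. These shares are the background for every list count below. The lists were chosen with earlier results of these data known, so their counts are descriptions. Of the calls, 246 rises and 351 falls were at least 2-fold, 42 rises and 40 falls at least 4-fold, and the median difference over all genes was 0.03. In 2759 of the 2789 called genes every 96 h array lay on 1 side of every 48 h array. For comparison, all 96 h arrays lay above all 48 h arrays in 14.2% of the measured genes, and below in 13.6%. Among genes with a symbol the balance was 1042 higher to 592 lower. Among features without one it was 254 higher to 901 lower, and these features had been higher at 48 h than at 0 h by a median of 0.22 to 0.26. Scaled to the median of each array instead, which moved the median of all genes to -0.13, 158 genes rose and 762 fell, so 17.2% rather than 46.5% of calls were rises.

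Set against the earlier step, the later changes fell into 3 kinds. The 48 h arrays stand in both steps, so the values of the steps are given side by side and their relation was not tested. From 0 h to 48 h, 4657 genes (18.6%) were called, 2644 higher (10.5%) and 2013 lower (8.03%). From 0 h to 96 h, 2397 (9.56%) were called, 1549 higher (6.18%) and 848 lower (3.38%). Of the 2644, 845 (32.0%) were then lower at 96 h than at 48 h and 20 (0.756%) higher still. Of the 2013, 405 (20.1%) were then higher and 5 (0.248%) lower still. The genes that turned back, 1250 or 4.98% of all measured, made up 56.6% of the falls and 31.2% of the rises. The remaining 871 rises and 643 falls were in genes that had no call at 48 h. Genes that went up and then down had a median difference of 0.65 in the first step and -0.81 in the second, and ended at a median of -0.10 from their 0 h level. Only 6 of these 845 were still called above 0 h at 96 h, and 44 were called below it. Genes that went down and then up had medians of -0.59, 0.64 and 0.04, with 11 of 405 still called below 0 h. Without 1 array at a time, the number turned back was 488 to 1396.

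The largest rise of any gene was in Ltf, a neutrophil granule gene, and several other such genes were among the largest rises. Lactoferrin (Ltf), the iron-binding protein of secondary granules, read -1.29, -1.18, -2.45 and -1.93 at 48 h and 5.11, 3.39 and 5.23 at 96 h. All 3 arrays at 96 h were far above all 4 at 48 h, and the 48 h arrays overlapped those of 0 h (-3.57 to -1.40). The difference of 6.29 (SE 0.58, adjusted p = 0.00219), a fold of 78.1, was the largest of any gene, and within the pairs of arrays with the same file-name number it was 6.39, 5.84 and 7.16. Camp, the cathelicidin antimicrobial peptide of the same granules, rose in both steps. Its 0 h level was 1.82 ± 0.97 (SD, n = 4), and it read 4.95, 4.93, 3.25 and 4.15 at 48 h and 7.79, 6.52 and 8.26 at 96 h (later difference 3.21, SE 0.61, adjusted p = 0.0119). Neither step left an overlap with the one before. Ceacam10 read -1.77, -1.78, -2.80 and -2.71 at 48 h and 1.0, -0.75 and 0.73 at 96 h (difference 2.59, SE 0.59, adjusted p = 0.0221), and lost its call without 96 h replicate 1 (2.25, adjusted p = 0.0855), without 96 h replicate 3 or without 48 h replicate 4. In a sample of cells, more cells of a stage and more RNA per cell cannot be told apart.

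**Figure D1:**
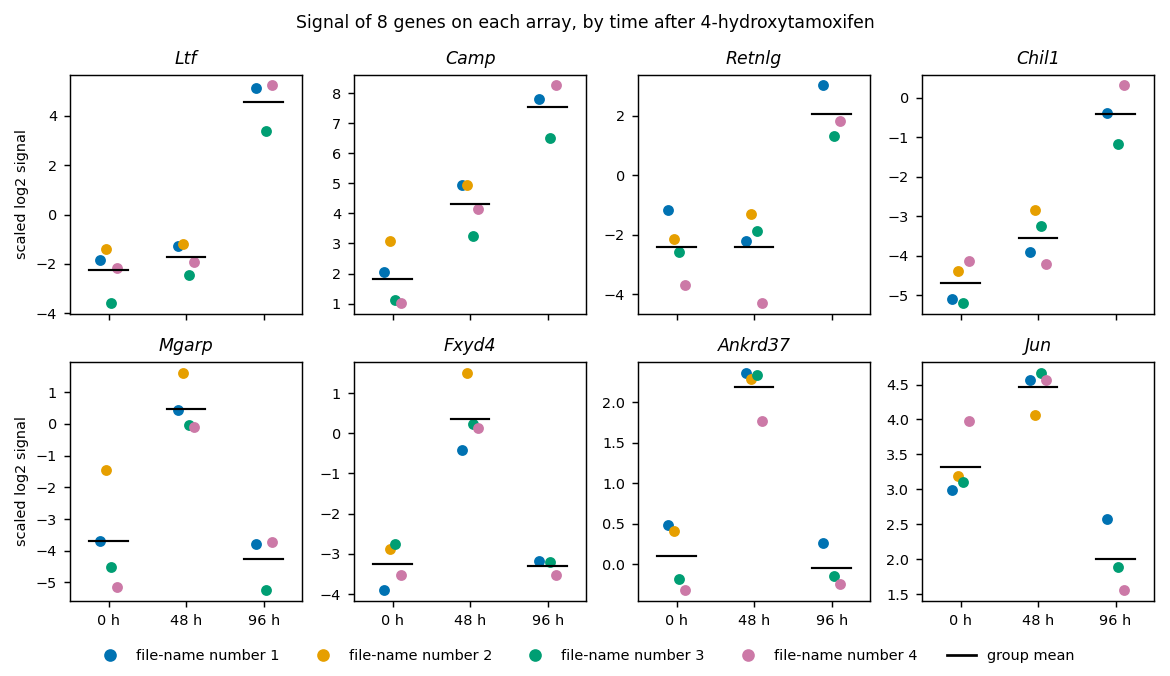
Scaled log2 signal (vertical axis, its range set per gene) of 8 genes on each of the 11 arrays, grouped by time after 4-hydroxytamoxifen (horizontal axis). Points are arrays, coloured by file-name number, and lines are group means. Ltf, Retnlg, Camp and Chil1 were highest on the 3 arrays at 96 h. Mgarp, Fxyd4, Ankrd37 and Jun were high at 48 h and low again at 96 h.

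Of 15 measured secondary granule genes, these 3 rose and 0 fell, against 5.17% and 5.95% of all genes, and the median difference was 0.89 against 0.03. With the file-name number as a block, 6 of the 15 rose, and without 96 h replicate 1, 2 rose and the median was 0.45. Cd177, a neutrophil surface protein, read 0.76, 0.84, -0.64 and -0.91 at 48 h and 2.74, 0.94 and 2.26 at 96 h (difference 1.97, SE 0.63, adjusted p = 0.0715). Ngp, neutrophilic granule protein, read 5.70, 4.36, 3.0 and 3.45 at 48 h and 6.32, 4.47 and 6.47 at 96 h, so its groups overlapped (difference 1.62, SE 1.01, adjusted p = 0.328). For Ngp the low and high 48 h arrays were farther apart than the group means.

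The promoter of Ltf is shown because Ltf had the largest change and because myeloid granule genes are known targets of C/EBP factors. It is the RefSeq window of assembly GRCm38.p6 at chr9:111019042-111019341, plus strand, from 250 bases before to 50 bases after the start of transcription, printed 5′ to 3′ with matches to TTNNGNAA, read on both strands, in capitals.
Ltf: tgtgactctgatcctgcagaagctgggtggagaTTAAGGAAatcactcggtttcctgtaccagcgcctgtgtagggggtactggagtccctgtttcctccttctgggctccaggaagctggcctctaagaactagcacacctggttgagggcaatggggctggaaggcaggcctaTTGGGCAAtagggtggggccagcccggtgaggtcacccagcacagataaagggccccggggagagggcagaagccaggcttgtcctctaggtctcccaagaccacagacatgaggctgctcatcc
The window held 2 matches. Of the 6 granule and neutrophil genes that rose (Asprv1, Camp, Ceacam10, Fcnb, Ltf and Retnlg), 3 had a match, in 3 of 7 windows, while 40.7% of all 32851 mouse promoter windows of the same length held one. The match is therefore about as frequent in these windows as in promoters at large.

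Markers of neighbouring stages moved less uniformly. Retnlg, a resistin-like protein of mature neutrophils, read -2.21, -1.32, -1.88 and -4.28 at 48 h and 3.01, 1.33 and 1.81 at 96 h (difference 4.47, SE 0.75, adjusted p = 0.00791). Its 96 h arrays all lay above its 48 h arrays, of which 3 of 4 were well above background, while 48 h and 0 h did not differ (-0.02, adjusted p = 0.985). Asprv1, an aspartic protease transcribed in neutrophils, was 2.25 higher (SE 0.31, adjusted p = 0.00418). Among 34 measured tertiary granule and mature neutrophil genes these 2 rose and 1 fell (8.82% called, against 11.1% of all genes). The median difference was 0.35, and it was -0.02 without 96 h replicate 1. With the file-name number as a block, 5 rose and 3 fell. The gene that fell was Itgam, the integrin CD11b, whose brightest probe read 5.13 to 5.24 at 48 h and 4.39 to 4.58 at 96 h (difference -0.69, adjusted p = 0.00815). Its 2 other probes were 0.28 and 0.42 higher without a call, so its probes disagree. Stfa2, a stefin of neutrophils, was 2.32 higher, but its 48 h arrays spanned 3.53 to 7.32 (SE 1.40, adjusted p = 0.31).

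Of 17 measured primary granule and progenitor genes, 6 had been called higher at 48 h than at 0 h, and 2 were called in the later step. Mpo, myeloperoxidase, had a level of -0.15 ± 1.24 (SD, n = 4) before the compound and of 4.18 ± 0.43 (n = 4) by 48 h, and read 5.44, 4.89 and 4.77 at 96 h (later difference 0.85, SE 0.56, adjusted p = 0.358). Elane, neutrophil elastase, was 7.49 ± 0.43 (n = 4) at 48 h and 7.81 ± 0.35 (n = 3) at 96 h (difference 0.32, SE 0.43, adjusted p = 0.671). Of the 17, Fcnb rose and Srgn fell, with a median difference of 0.01. Fcnb, a ficolin of early neutrophil granules, was well above background on 0 of 4 arrays at 48 h and on all 3 at 96 h, which makes it at least 2.35-fold higher (means -5.46 and -2.95, adjusted p = 0.0153). Its call was lost with normexp background correction (0.34, adjusted p = 0.17) and in the authors' series table (0.35, adjusted p = 0.164). Srgn, the proteoglycan that packs granule contents, fell by 0.32 (adjusted p = 0.0432), lost its call in 18 of 24 alternative settings and turned sign in the authors' series table (0.04).

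Neutrophil-associated genes outside the lists that were among the 15 largest rises were Chil1 and Itgb2l. Chil1, a chitinase-like protein of secondary granules, read -3.90, -2.86, -3.26 and -4.21 at 48 h and -0.39, -1.18 and 0.31 at 96 h, with no overlap (difference 3.13, SE 0.43, adjusted p = 0.00412). The Chil1 difference was 1.43 to 3.51 across the alternative settings. Itgb2l, an integrin beta-2-like chain of late granulocyte precursors, read 0.21, -0.38, -1.78 and -1.87 at 48 h and 3.15, 1.05 and 2.53 at 96 h (difference 3.20, SE 0.82, adjusted p = 0.0353), and did not pass the test without 96 h replicate 1 (adjusted p = 0.124), without 96 h replicate 3 or without 48 h replicate 2, 3 or 4. Among 30 measured monocyte and macrophage genes limma called 0, with a median of -0.23 and 3 lower and 0 higher at an unadjusted p under 0.05. With the file-name number as a block 3 fell. Among 22 measured stem and progenitor genes 0 rose and 1 fell, the cytokine receptor Flt3 (-0.93, SE 0.21, adjusted p = 0.0225), which lost its call without any 1 of the 3 arrays at 96 h and without 48 h replicate 1 or 4. Of 8 measured phagocyte oxidase genes 1 rose (3 with the file-name number as a block), Rac2 (0.41, SE 0.11, adjusted p = 0.0372), a call lost in 14 of 24 alternatives, while Cybb, the catalytic subunit, read -2.31, -1.45, -3.11 and -3.64 at 48 h and -0.65, -2.16 and -0.57 at 96 h (difference 1.5, SE 0.72, adjusted p = 0.203).

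**Figure D2:**
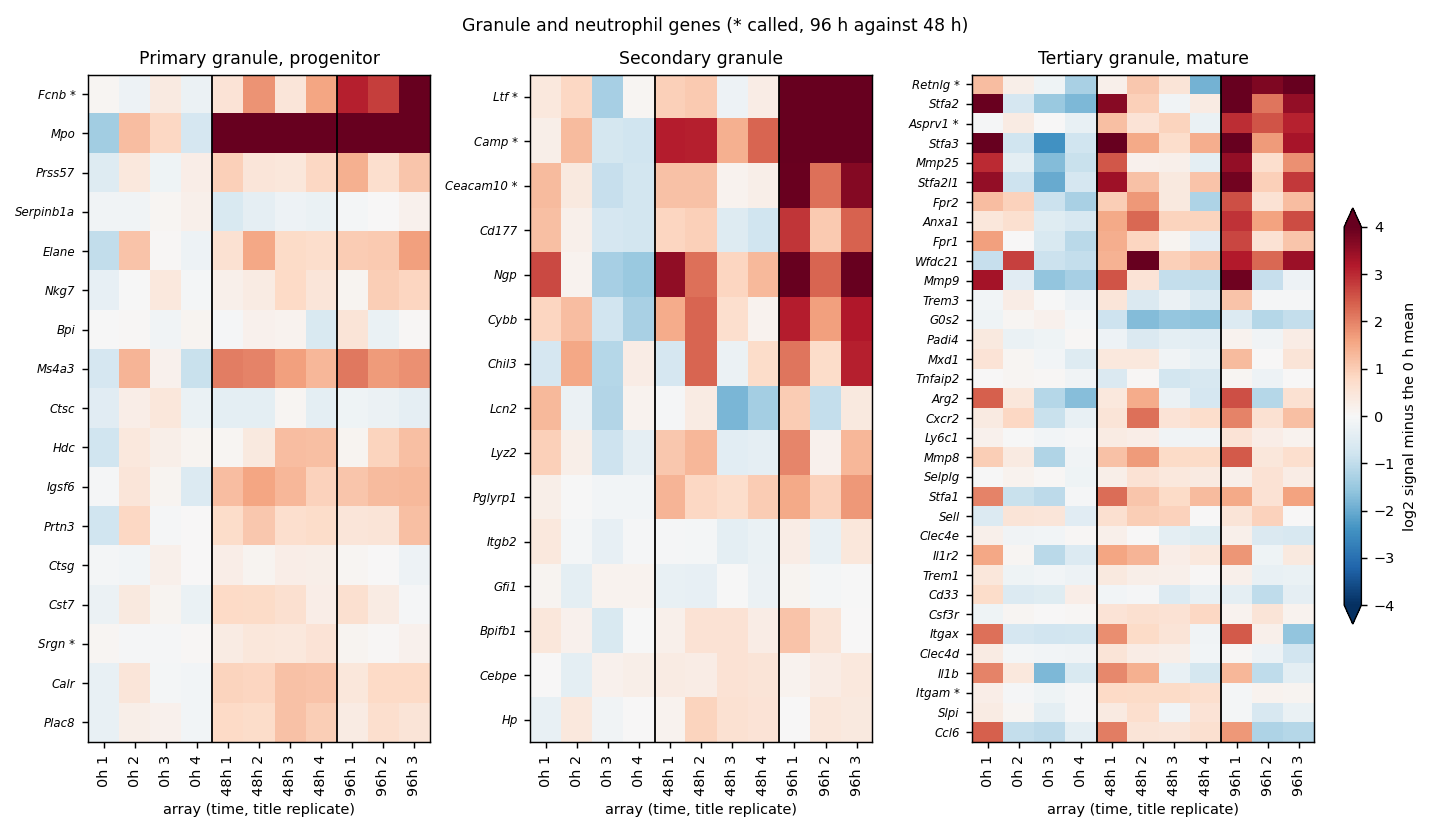
Each cell is a gene's log2 signal on 1 array minus its 0 h mean (colour scale from -4 to 4, values beyond it shown at its end), for genes of primary granules, secondary granules, and tertiary granules or mature neutrophils. Columns are arrays by time and title replicate, and an asterisk marks genes called at 96 h against 48 h. The rows of Ltf and Camp darken at 96 h, Mpo was already high at 48 h, and several mature neutrophil genes were high on replicate 1 at every time.

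Genes of hypoxia and glycolysis were the group with the most falls. Of 35 measured members 18 fell and 0 rose by limma (51.4% called, against 11.1% of all genes). At an unadjusted p under 0.05, 20 were lower and 2 higher. All 18 called members had every 96 h array below every 48 h array. This follows largely from the call, since 2759 of all 2789 called genes were separated. The list's median was 0.52 in the first step and -0.54 in the second, which left it at -0.05 from 0 h. The second-step median was -0.30 with quantile normalization, -0.28 with normexp and -0.20 in the authors' series table. Of the 18, 15 had been called higher at 48 h, and 0 differed from 0 h at 96 h by the same test. In the 24 alternative settings 12 to 19 members of the hypoxia list fell and at most 1 rose, with 13 falling without 96 h replicate 1. Mgarp, a mitochondrial protein also known as an estrogen- and hypoxia-responsive gene, read 0.45, 1.61, -0.04 and -0.08 at 48 h and -3.79, -5.24 and -3.72 at 96 h. This was the largest fall of any gene with a symbol (-4.74, SE 0.80, adjusted p = 0.00806), and it undid a rise of 4.18 from a 0 h mean of -3.70. Of the 3 arrays at 96 h, 2 were well above background. The Mgarp difference kept its call but was -5.09 to -2.19 across the alternative settings.

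Ankrd37, an ankyrin repeat protein induced by HIF, read 2.36, 2.29, 2.34 and 1.77 at 48 h and 0.27, -0.14 and -0.25 at 96 h (difference -2.23, SE 0.24, adjusted p = 0.00262). Its 96 h arrays lay within the range of its 0 h arrays (-0.32 to 0.49). Bnip3, a mitophagy receptor, read 5.2, 5.49, 5.30 and 5.12 at 48 h and 4.00, 3.85 and 3.95 at 96 h (difference -1.34, SE 0.14, adjusted p = 0.00254), and all 3 of its probes fell. Its means were 3.94 ± 0.23 (SD, n = 4) at 0 h and 3.93 ± 0.08 (n = 3) at 96 h, so the rise of 1.34 at 48 h had gone. Car9, a carbonic anhydrase of the cell surface, read 3.59, 4.68, 3.55 and 3.51 at 48 h and 2.17, 2.18 and 2.32 at 96 h (difference -1.61, SE 0.26, adjusted p = 0.00691). Egln3, a prolyl hydroxylase that is itself a HIF target, fell by 1.01 (SE 0.14, adjusted p = 0.00448).

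Of 14 measured glycolytic enzymes 8 fell and 0 rose, with a median of -0.58 after 0.59 in the first step. The falls were 1.12 for Pgk1 (phosphoglycerate kinase), 0.87 for Ldha (lactate dehydrogenase), 0.73 for Aldoa and 1.46 for Aldoc (aldolases), 0.77 for Gapdh, 0.59 for Eno1 (enolase), 0.56 for Gpi1 and 0.85 for Tpi1. Pgk1 read 8.47, 8.48, 8.17 and 8.11 at 48 h and 7.29, 7.08 and 7.19 at 96 h (SE 0.12, adjusted p = 0.00295). Ldha read 9.69, 9.69, 9.85 and 9.90 at 48 h and 8.83, 9.03 and 8.87 at 96 h (SE 0.10, adjusted p = 0.00309). For both, the 96 h arrays sat at or below the 0 h range, which was 7.27 to 7.48 for Pgk1 and 8.94 to 9.14 for Ldha, except for 1 array of each within it. Slc16a3, the lactate exporter MCT4, read 7.06, 7.04, 7.09 and 7.04 at 48 h and 6.08, 5.96 and 6.12 at 96 h (difference -1.0, SE 0.11, adjusted p = 0.00295). Slc2a1, the glucose transporter GLUT1, fell by 0.54 (adjusted p = 0.0323), and Pdk1, which holds pyruvate out of the mitochondria, by 0.38 (adjusted p = 0.0359). Pkm, pyruvate kinase, was 0.50 lower with adjusted p = 0.073.

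Not every HIF-linked gene followed. Vegfa, the angiogenic growth factor, read 2.08, 2.11, 2.00 and 1.82 at 48 h and 2.26, 1.99 and 2.12 at 96 h (difference 0.12, SE 0.12, adjusted p = 0.54), and had been lower at 48 h than at 0 h by 0.67. Ndrg1 and Hif1a itself had likewise been lower at 48 h, by 1.13 and 0.53, and differed by 0.26 (adjusted p = 0.582) and 0.10 (adjusted p = 0.676) at 96 h. Pfkfb4 had risen by 0.76 at 48 h and was 0.15 higher again at 96 h (adjusted p = 0.562). Epas1, which encodes HIF-2 alpha, fell by 0.64 (SE 0.13, adjusted p = 0.0154) without a call in the first step.

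**Figure D3:**
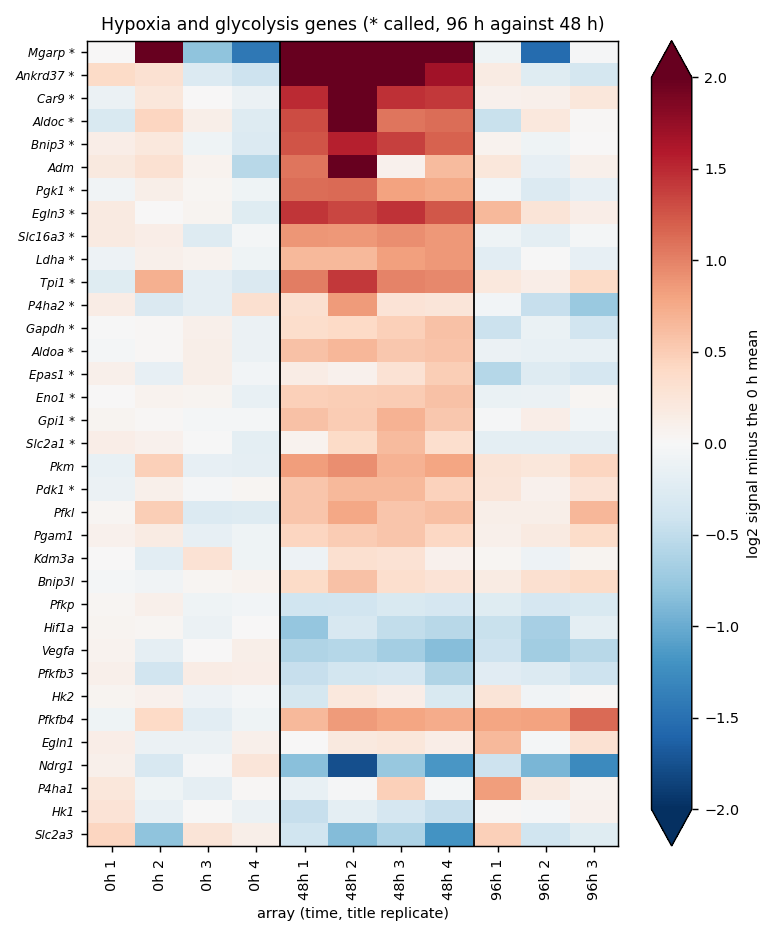
Each cell is a gene's log2 signal on 1 array minus its 0 h mean (colour scale from -2 to 2, values beyond it shown at its end), for the 35 measured hypoxia and glycolysis genes ordered by their difference at 96 h against 48 h. Columns are arrays by time and title replicate, and an asterisk marks called genes. The 48 h columns are high in the upper rows and the 96 h columns are close to those of 0 h.

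Promoters of 5 of the genes that fell are shown because ACGTG, the core bound by hypoxia-inducible factors, can be read in them. The windows come from RefSeq, assembly GRCm38.p6, cover 250 bases before to 50 bases after the start, and are printed 5′ to 3′ on the gene's strand with ACGTG, or its reverse complement CACGT, in capitals. They lie at chr3:51396498-51396797 (minus strand) for Mgarp, chr8:45999801-46000100 (minus) for Ankrd37, chr7:138909457-138909756 (minus) for Bnip3, chr7:46845554-46845853 (plus) for Ldha and chr11:120948817-120949116 (plus) for Slc16a3.
Mgarp: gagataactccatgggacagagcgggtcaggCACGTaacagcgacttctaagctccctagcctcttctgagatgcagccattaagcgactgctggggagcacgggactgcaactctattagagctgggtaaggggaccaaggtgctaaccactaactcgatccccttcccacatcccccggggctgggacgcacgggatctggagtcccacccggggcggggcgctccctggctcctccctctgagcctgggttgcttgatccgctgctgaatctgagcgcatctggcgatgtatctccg
Ankrd37: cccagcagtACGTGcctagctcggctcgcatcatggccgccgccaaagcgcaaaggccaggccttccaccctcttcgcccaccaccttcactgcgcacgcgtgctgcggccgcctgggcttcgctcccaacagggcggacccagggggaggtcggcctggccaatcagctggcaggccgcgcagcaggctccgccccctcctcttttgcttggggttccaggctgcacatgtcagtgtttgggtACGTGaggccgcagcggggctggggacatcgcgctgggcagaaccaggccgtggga
Bnip3: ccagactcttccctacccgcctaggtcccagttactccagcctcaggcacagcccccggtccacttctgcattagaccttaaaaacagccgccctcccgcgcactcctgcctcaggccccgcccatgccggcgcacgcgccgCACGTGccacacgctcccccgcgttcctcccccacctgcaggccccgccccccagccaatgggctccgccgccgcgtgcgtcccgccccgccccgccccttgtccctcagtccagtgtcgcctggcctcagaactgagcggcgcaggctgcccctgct
Ldha: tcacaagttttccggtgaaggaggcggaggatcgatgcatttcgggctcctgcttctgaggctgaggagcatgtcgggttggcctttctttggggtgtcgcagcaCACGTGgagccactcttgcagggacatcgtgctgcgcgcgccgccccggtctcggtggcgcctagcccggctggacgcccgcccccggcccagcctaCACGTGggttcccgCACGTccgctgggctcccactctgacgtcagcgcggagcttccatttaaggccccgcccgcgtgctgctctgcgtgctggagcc
Slc16a3: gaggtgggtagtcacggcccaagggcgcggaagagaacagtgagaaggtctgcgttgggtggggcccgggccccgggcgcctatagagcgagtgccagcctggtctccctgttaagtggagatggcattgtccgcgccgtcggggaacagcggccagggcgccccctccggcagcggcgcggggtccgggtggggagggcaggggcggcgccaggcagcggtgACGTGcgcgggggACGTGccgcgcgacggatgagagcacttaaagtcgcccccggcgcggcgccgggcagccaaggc
The Ldha window held 5 matches, where overlapping matches on the 2 strands each count, Ankrd37, Bnip3 and Slc16a3 held 2 each, and Mgarp 1. Of the 18 genes that fell, 17 had a window and 13 of these a match, in 14 of 24 windows (58.3%), against 19.6% of all 32851 windows. The genes of this list were chosen as known hypoxia targets, with earlier results of these data known, and Mgarp was a marker given beforehand. The share therefore describes the list and was not tested. No match was found in the windows of Eno1, Gpi1, Pdk1 and Tpi1.

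Outside that group, strong reversals were those of Fxyd4 and Jun. Fxyd4, a regulator of the sodium pump, read -0.41, 1.5, 0.24 and 0.12 at 48 h and -3.19, -3.21 and -3.52 at 96 h (difference -3.67, SE 0.42, adjusted p = 0.00295), after a mean of -3.26 at 0 h. Its 96 h arrays lay inside the 0 h range of -3.90 to -2.76. The Fxyd4 difference was -3.93 to -1.98 across the alternative settings. Jun, an AP-1 transcription factor, read 4.56, 4.07, 4.67 and 4.57 at 48 h and 2.58, 1.88 and 1.56 at 96 h (difference -2.46, SE 0.29, adjusted p = 0.00304). It went beyond its start, to 1.31 below 0 h (adjusted p = 0.0258). Bok, a pro-apoptotic BCL2 relative, also overshot: it read 1.08, 0.69, 0.99 and 1.17 at 48 h and -0.76, -0.77 and -0.70 at 96 h (difference -1.73, SE 0.12, adjusted p = 0.00115), which was 0.81 below 0 h (adjusted p = 0.00811). S100a10, the annexin A2 partner, fell from 3.19 to 3.48 at 48 h to 1.80 to 2.04 at 96 h (difference -1.42, SE 0.14, adjusted p = 0.00219).

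Other genes with large reversals from high to low were Smtnl2 (2.37 then -2.93), Tpd52l1 (1.88 then -2.64), Rergl (1.82 then -1.97) and Glod5 (2.55 then -1.73). Glod5 stopped short of its start, at 0.00 against -0.82 at 0 h. Rergl lost its call in 10 of 23 alternatives. The Smtnl2 difference was -3.37 to -1.07 across the alternative settings. Among the 15 largest falls were also AU018091 (-2.91), the globin gene Hbb-bt (-2.83), Rhox3a (-2.71), Scn3b (-2.48), Ddx25 (-2.41), Tbx22 (-2.40), Klra1 (-2.35) and Gbp6 (-2.32). The calls of Hbb-bt (adjusted p = 0.14), Ddx25 (0.0595), Tbx22 (0.0834) and Gbp6 (0.0503) were lost without 96 h replicate 1. With normexp the falls of genes near background were smaller in the same direction, -0.49 for AU018091, -0.82 for Rhox3a and -0.60 for Tpd52l1. Tspan33, a tetraspanin, was well above background on all 4 arrays at 48 h and on none at 96 h or 0 h. In the main scaling it was at least 2.55-fold lower at 96 h (means -3.41 and -5.93, adjusted p = 0.00348). Its difference was -2.80 to -0.33 across the alternative settings, so the bound does not hold in all of them.

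Genes that fell first and then rose included members of the integrated stress response. Cth, the cystathionine gamma-lyase that makes cysteine, read 1.23, 0.55, 0.96 and 0.55 at 48 h and 3.75, 2.59 and 2.46 at 96 h (difference 2.11, SE 0.31, adjusted p = 0.00517), after 3.44 ± 0.30 (SD, n = 4) at 0 h. Both of its probes rose. Of 38 measured genes of the unfolded protein and integrated stress response 4 rose and 1 fell (median 0.11), after 3 rises and 18 falls at 48 h. The later share called was 13.2%, near the 11.1% of all genes. The rises were Cth, Vldlr (0.85, SE 0.21, adjusted p = 0.0287), Aldh18a1 (0.46, SE 0.12, adjusted p = 0.0395) and Atf5 (0.62, SE 0.17, adjusted p = 0.0414), and the fall was Creld2 (-0.44, adjusted p = 0.0238). Vldlr groups overlapped, since 48 h replicate 3 read 2.98 and 96 h replicate 3 read 2.95. Ddit3, the transcription factor CHOP, read -0.24, -0.72, -0.75 and -0.63 at 48 h and 2.44, 1.32 and -0.37 at 96 h (difference 1.72, SE 0.51, adjusted p = 0.056), so 2 of 3 arrays were clearly higher and 1 was not. Trib3, a target of that pathway, was 0.92 higher (SE 0.40, adjusted p = 0.168). Without 96 h replicate 1, or with arrays scaled to their medians, 1 member of the list rose.

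Others that fell and rose again were Agap1 (-2.11 then 1.78), Extl1 (-2.32 then 1.65) and Plxna2 (-1.56 then 1.74). Cracd, Olfr1362, 5930430L01Rik and Ticam2 were well above background on all arrays at 0 h and 96 h and on none at 48 h. Relative to the bound at 48 h they were at least 3.33, 2.11, 2.29 and 1.53-fold higher at 96 h. Of these, Olfr1362, 5930430L01Rik and Ticam2 lost their calls without 96 h replicate 1 and in the authors' series table, as did Plxna2. Cracd kept its call, but its difference was 2.98 in the main setting and as small as 0.45 in an alternative. Agap1 lost its call without 96 h replicate 1.

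**Figure D4:**
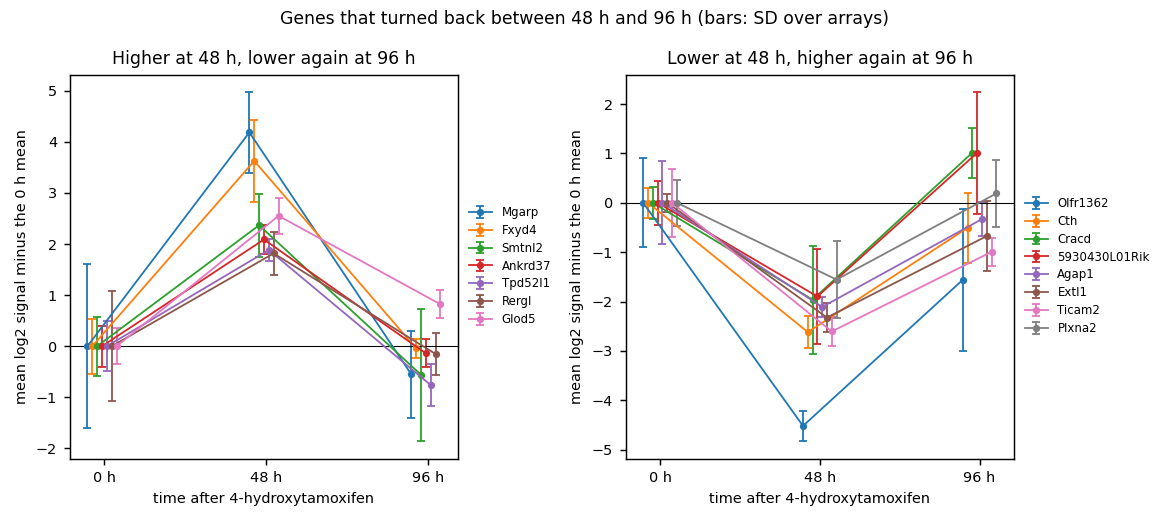
Mean log2 signal minus the 0 h mean (vertical axis) at 0 h, 48 h and 96 h (horizontal axis) for 7 of the 8 genes with the largest rise and later fall and the 8 with the largest fall and later rise. Bars are the SD over 4, 4 and 3 arrays. Most lines end within 1 unit of their start, while Olfr1362 ended at -1.56.

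Genes that went on in the same direction were few, 20 up and 5 down. The falls included the receptor of the cytokine in the medium: Il3ra, the IL-3 receptor alpha chain, read 5.33 to 5.51 at 0 h, then 4.12, 4.37, 4.42 and 3.93 at 48 h and 3.28, 3.91 and 3.38 at 96 h (later difference -0.69, SE 0.17, adjusted p = 0.0305). No 96 h array reached a 48 h array, though the later call was lost in 9 of 24 alternatives, among them leaving out 96 h replicate 1 (-0.57, adjusted p = 0.115). Cish, a feedback inhibitor induced by STAT5, read 3.71, 3.61, 3.73 and 3.44 at 48 h and 3.15, 2.98 and 2.86 at 96 h (difference -0.63, SE 0.11, adjusted p = 0.01), after a fall of 0.35 in the first step. Magohb, an exon junction complex subunit, fell by 0.95 and then by 0.84 (SE 0.13, adjusted p = 0.00531). The other 2 were Sdr39u1 (-0.48) and Sumo3 (-0.38), and the latter turned to 0.03 when its probes were averaged. Of the continued rises, the 6 with a symbol that ranked highest by the smaller of their 2 steps were Camp, Mrgpra2b (0.77), Proca1 (0.93), Frmd4a (0.86), Cd3d (0.48) and Gdf1 (0.67). Frmd4a and Gdf1 lost their calls when their probes were averaged, and Gdf1 then read -0.12. Cd3d lost its call in 16 of 24 alternatives and Mrgpra2b in 15.

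In the IL-3 receptor and JAK-STAT5 list, 4 of 27 measured genes rose and 2 fell (22.2% called, median 0.05), and Cish and Il3ra were the falls. Spred2, an inhibitor of RAS signalling, read -1.02, -1.36, -0.98 and -1.29 at 48 h and -0.39, -0.36 and -0.30 at 96 h (difference 0.81, SE 0.13, adjusted p = 0.0058). The kinase Jak2 returned from 1.40 to 1.56 at 48 h to 1.92 to 2.14 at 96 h (difference 0.55, SE 0.12, adjusted p = 0.0203), near its 0 h range of 1.82 to 2.29. The call of Jak2 was lost in 8 of 24 alternatives, among them leaving out 96 h replicate 1. Jak1 (0.52) and Spred1 (0.68) were the other rises. With arrays scaled to their medians 0 rose and 1 fell.

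Late changes, in genes with under 0.25 of difference and no call at 48 h, were ranked by p rather than by size, and the first 6 rises were Myo1f, Golga4, Sort1, Rrbp1, Ncoa6 and Acrbp. Myo1f, an unconventional myosin of leukocytes, read 4.41, 4.57, 4.48 and 4.53 at 48 h and 5.33, 5.30 and 5.30 at 96 h (difference 0.81, SE 0.08, adjusted p = 0.00254). Rrbp1, a ribosome-binding protein of the endoplasmic reticulum, read 2.19, 2.78, 2.58 and 2.20 at 48 h and 3.70, 3.70 and 3.71 at 96 h (difference 1.27, SE 0.15, adjusted p = 0.00314). A second Rrbp1 probe, well above background on all arrays, differed by -0.02 (adjusted p = 0.941, over all probes), so its probes disagree. Golga4 (1.09), a trans-Golgi golgin, Sort1 (0.93), the sorting receptor sortilin, and Ncoa6 (1.18), a nuclear receptor coactivator, rose as well. Sort1 lost its call when its 3 probes were averaged, and Sort1, Myo1f and Acrbp lost theirs with arrays scaled to their medians.

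Among the late falls ranked the same way was Itgb7, an integrin chain of leukocyte homing. It read 3.15, 3.10, 3.43 and 3.34 at 48 h and 1.08, 1.89 and 0.94 at 96 h, with no overlap (difference -1.95, SE 0.24, adjusted p = 0.00322). The 0 h mean was 3.02. Crebbp, a histone acetyltransferase, fell by 0.76 (SE 0.13, adjusted p = 0.00818), Tmsb10, an actin-binding thymosin, by 0.67, Ywhah, a 14-3-3 protein, by 0.53, Olfr1109 by 1.13 and Gm2016 by 0.64. These 6 falls kept their call in all 24 alternative settings.

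Several genes of chromatin and of the MLL-AF9 programme were higher. In that programme 5 of 23 measured genes rose and 1 fell (26.1% called, median 0.27), after 2 rises and 6 falls at 48 h. Dot1l, the histone H3 methyltransferase recruited by MLL fusions, read 1.01, 1.23, 1.57 and 1.19 at 48 h and 2.16, 2.14 and 2.05 at 96 h (difference 0.87, SE 0.13, adjusted p = 0.00507). Jmjd1c, a jumonji protein, was 0.82 higher (SE 0.15, adjusted p = 0.0116), and Psip1, the chromatin tether LEDGF, 0.56 higher (SE 0.15, adjusted p = 0.037). A second probe of Psip1 was lower at 96 h (-0.37) and not called, the mean of both probes differed by 0.09, and the call was lost in 14 of 24 alternatives. Hoxa11 was 0.76 higher (SE 0.21, adjusted p = 0.0479). Men1, the menin scaffold of MLL, fell by 0.63 (SE 0.11, adjusted p = 0.00938). A second Men1 probe, well above background on all arrays, differed by -0.17 and was not called (adjusted p = 0.287, over all probes). Hoxa9 and Meis1, the best known targets of MLL-AF9, differed by 0.17 (adjusted p = 0.502) and 0.37 (adjusted p = 0.0827). With arrays scaled to their medians 0 members were called in either direction, and without 96 h replicate 1, 2 rose and 1 fell.

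Among 34 measured genes that write, erase or read methylation of histone H3 at lysine 9 or 36, 4 rose and 1 fell (median 0.13). The share called was 14.7%, near the 11.1% of all genes. Phf2, a demethylase of the same jumonji class, was 1.1 higher (SE 0.16, adjusted p = 0.00466), Nsd2, a lysine 36 methyltransferase, 0.61 (adjusted p = 0.0292), and Dnmt1, the maintenance DNA methyltransferase, 0.83 (adjusted p = 0.031), beside Jmjd1c. Of the 4 Nsd2 probes 2 rose, and the others differed by 0.19 and -0.04 without a call. Dnmt3l fell by 0.49 (adjusted p = 0.0272). Here too the median scaling left 0 members called.

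Interferon-stimulated genes were the list with the second highest median, 0.62, but 2 of 27 passed the test (7.41% called): Stat2 (0.77, SE 0.17, adjusted p = 0.0192) and Ifit2 (0.62, SE 0.15, adjusted p = 0.0289). Of the 27, 23 were higher on average, and 11 rose with the file-name number as a block. Without 96 h replicate 1 the median was 0.18 and 0 were called. In the BCL2 family and caspases 2 of 30 rose, Bcl2l2 (0.47) and Birc2 (0.52), and 2 fell, Bok and Cycs (-0.41). Among p53 targets 3 of 29 rose and 2 fell, led by Phlda3, an AKT inhibitor, at -1.06 (adjusted p = 0.0108), with Polk (0.50), Pidd1 (0.68), Ddb2 (0.61) and Cdkn1a (-0.69). In cholesterol and fatty acid synthesis, where 19 of 34 had been higher at 48 h, 3 fell, Acat2 (-1.02), Hsd17b7 (-0.70) and Sqle (-0.41), 1 rose, Acaca (0.52), and the median was -0.22. Of the genes named here, Stat2, Ifit2, Bcl2l2, Birc2, Cycs, Polk, Pidd1, Ddb2, Acat2, Hsd17b7, Sqle and Acaca lost their call without 96 h replicate 1. A second Polk probe was 0.31 lower, and the other Acaca probes differed by -0.01 and -0.36, none with a call.

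**Figure D5:**
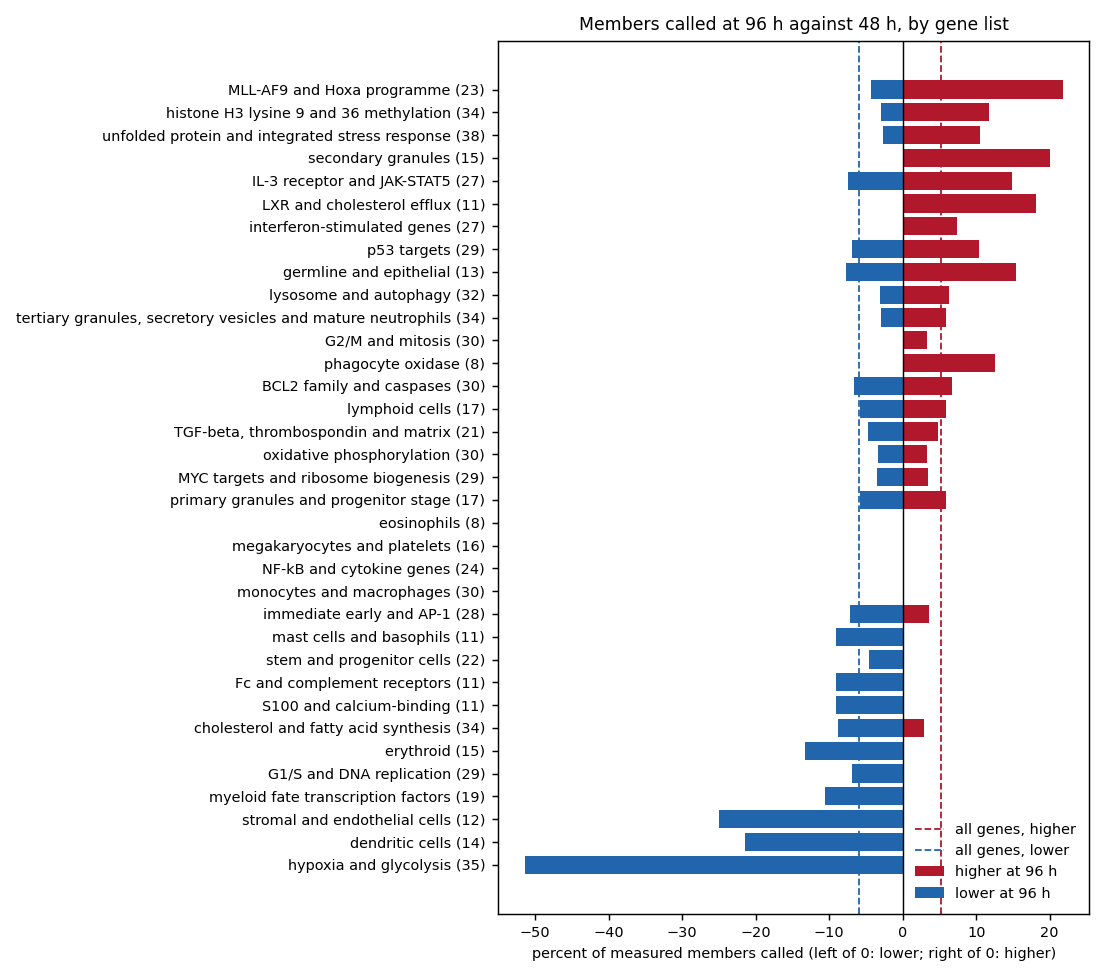
Percent of each list's measured members (number in brackets) called higher, right of 0, or lower, left of 0, at 96 h against 48 h. Dashed lines give the same over all genes, 5.17% higher and 5.95% lower. Hypoxia and glycolysis extends farthest to the left.

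Proliferation genes and several inflammatory groups showed few calls. Of 29 measured G1/S and replication genes 0 rose and 2 fell, Ccne1 (-0.56) and Cdc7 (-0.51), and of 30 G2/M genes 1 rose, Bub1b (0.85). Of 29 MYC targets 1 rose, Pes1 (0.54), and 1 fell, Mrto4 (-0.52). The other Pes1 probe was 0.25 lower without a call. Of 30 oxidative phosphorylation genes 1 rose, Sdha (0.35), and 1 fell, Cycs. Of 28 immediate early genes 1 rose, Nr4a2 (0.95), and 2 fell, Jun and the phosphatase Dusp1 (-0.71). Of 24 measured NF-kB and cytokine genes limma called 0, with 3 higher and 2 lower at an unadjusted p under 0.05, and 2 fell with the file-name number as a block. In the matrix list 1 of 21 rose, the TGF-beta receptor Tgfbr2 (0.53), and 1 fell. A second Tgfbr2 probe differed by -0.007. Of 11 S100 genes S100a10 fell, and of 11 Fc and complement receptor genes Itgam. In lysosome and autophagy 2 of 32 rose, Hexa (0.43) and Naglu (0.52), and Gla fell (-0.45). Of 11 LXR genes 2 rose, Mylip (1.0) and Nr1h2 (0.36). These shares lie near the background of 5.17% and 5.95% or rest on 1 or 2 genes. Runx1, which with Jun made up the 2 falls among 19 myeloid transcription factors, fell by 0.48 on its brighter probe and was 0.26 higher on the other. Leaving out 96 h replicate 1 removed the calls of Ccne1, Cdc7, Bub1b, Pes1, Mrto4, Sdha, Cycs, Tgfbr2, Hexa, Naglu, Gla, Nr1h2 and Runx1. Cdc7 lost its call in 18 of 24 alternatives, Naglu in 16, Pes1 in 15, and Nr4a2 and Dusp1 in 8 each.

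Markers of other cell types were read to see whether foreign cells moved with the comparison. Of 12 measured stromal and endothelial genes 3 fell, Lepr (-1.12), Kdr (-1.02) and Thy1 (-1.71), with a list median of -0.01. Thy1 lost its call in 13 of 24 alternatives. The summed linear level of the list was 38.9 to 51.0 at 0 h, 59.3 to 72.7 at 48 h and 29.5 to 36.1 at 96 h. Such a sum is weighted to bright probes, among them those of Kdr and Lepr (means 4.78 and 4.39 at 48 h). The second probes of Lepr and Kdr, which were mostly below background, differed by -0.02 and 0.06. Of 14 dendritic genes 3 fell, Batf3 (-1.25), Siglech (-0.50) and Flt3. The sum of the dendritic list was 170 to 191 at 0 h, 252 to 270.0 at 48 h and 169 to 220 at 96 h. Of 15 erythroid genes 2 fell, Car1 (-0.74) and Hbb-bt (4 with the file-name number as a block), of 11 mast cell genes 1, Tpsb2 (-0.42), and of 17 lymphoid genes 1 fell, Cd3e (-0.90), and 1 rose, Cd3d. Among 16 megakaryocyte and 8 eosinophil genes limma called 0, with 3 and 0 lower at an unadjusted p under 0.05. With the file-name number as a block 2 megakaryocyte genes fell. In germline and epithelial genes Tjp3 (0.95) and Krt8 (at least 1.29-fold) rose and Cldn4 (-0.67) fell, of 13 measured. The part of these markers in the results above was not tested.

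The largest rises also held genes with no place in a list. Syt10, a synaptotagmin, was 4.06 higher, but its 48 h arrays ran from -1.29 to 2.25 (SE 0.97, adjusted p = 0.0274), and Dnm1, a dynamin, was 3.37 higher (SE 0.81, adjusted p = 0.0279). Both lost their call without any 1 of the 96 h arrays and without 48 h replicate 1 or 2. A second Dnm1 probe, well above background on all arrays, was 0.45 higher and not called (adjusted p = 0.139, over all probes). Ankrd22, an ankyrin repeat protein of myeloid cells, was 3.48 higher (SE 0.75, adjusted p = 0.0186) and well above background on 1 of 4 arrays at 48 h, and lost its call without 96 h replicate 1 or 3 or 48 h replicate 4. Emx1 and Sparcl1, below background at 48 h, were at least 2.20 and 1.13-fold higher at 96 h. Emx1 lost its call in 10 of 23 alternatives, among them without 96 h replicate 1, and Sparcl1 with normexp and in the authors' series table (0.19 in both). Of the 121 named genes that were called, 117 kept their direction in all alternative settings and 40 also kept their call. Among the 40 were Asprv1, Camp, Chil1, Cracd, Cth, Extl1, Golga4, Ltf, Ncoa6, Retnlg and Rrbp1 together with Ankrd37, Batf3, Bnip3, Bok, Car1, Cd3e, Cish, Crebbp, Fxyd4, Glod5, Gm2016, Itgb7, Jun, Klra1, Magohb, Mgarp, Olfr1109, Pgk1, Phlda3, Rhox3a, S100a10, Scn3b, Slc16a3, Smtnl2, Tmsb10, Tpd52l1, Tspan33 and Ywhah. The other 81 lost their call in at least 1 setting.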

How the data were processed

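Total RNA was measured on 11 one-colour (Cy3) Agilent arrays. The deposited scanner files hold 62976 spots each, written by Feature Extraction 11.0.1.1 for a design annotated on mm9, per the file headers. The main values start from their processed intensity, background-subtracted within each array per the file headers. The deposited flag columns (other values, 0 or 1) mark spots that are outliers, saturated or well above background. The deposited median spot and background intensity served an alternative. The series table, as deposited by the authors, is in log2 units. limma is named in the submitters' processing notes, and each column matched normexp (offset 50) and quantile normalization of the scanner values (column medians 6.22 to 6.23, no centring). Its direction is that of signal.

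From these, each array's 75th percentile of log2 intensity, taken over its 59305 spots that are no controls, was subtracted, spots marked as outliers (125 to 194 per array) were left out, and spots of a probe were averaged (55681 probes). Probes well above background on at least 3 arrays were kept (34269), and the brightest stood for a gene (25079, of which 14996 with a symbol through RefSeq accessions). Where a group had no array well above background, an "at least" fold sets the bright group's mean against the dim group's mean bound. On each dim array the bound was the probe's own signal or the array's lowest well-above-background signal, whichever was larger. Such a bound holds for the main scaling and background correction only. limma 3.58.1 in R 4.3.3 fitted all 11 arrays in 3 groups (8 residual degrees of freedom, 2-sided), with Benjamini-Hochberg adjustment over all 25079 genes. The method was tested on simulated data. Figures used Python 3.11.15.

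File-name numbers were taken to pair the samples. Over genes, deviations from group means correlated at 0.115 to 0.356 in all 10 same-number pairs and at -0.293 to 0.167 in others, so the ranges overlapped. For 96 h and 48 h the same-number correlations were 0.229 to 0.303, against -0.04 to 0.30 by title number. The main fit and its p-values leave this pairing out. The labels do not say whether a number marks a cell line or a culture, so p-values measure the spread between these samples. Named genes, all with a symbol, were the 15 largest called rises and falls without overlap between groups, up to 4 called members per list, the largest 8 reversals each way, 6 continued and 6 late changes each way, the markers Ltf, Mgarp and Fxyd4, and the floxed genes with Il3ra. Other members were named to account for a list's count after their values were seen. Members and the 35 lists were chosen with earlier results of these data known. Kdm4d had no measured probe. Some genes that the rule names are not reported here.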

Additional observations from a re-analysis of the deposited data

Results flagged for a closer look

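Among the genes named, 15 of 252 groups of 4 arrays held an array far from the other 3, by a gap past Dixon's 95% critical value, and chance flags about 1 in 20 groups. At 48 h the values were Ankrd22 replicate 1 (-2.30, others -4.67 to -4.32), Batf3 replicate 3 (-2.90), Phf2 replicate 1 (-1.74), Ankrd37 replicate 4 (1.77, others 2.29 to 2.36), Nr4a2 replicate 1 (-2.54), Tpsb2 replicate 4 (-0.74), Vldlr replicate 3 (2.98, others 2.34 to 2.38) and Olfr1109 replicate 3 (-2.12). At 0 h they were Emx1 replicate 1 (-4.48), Pes1 replicate 2 (2.44), Phf2 replicate 3 (-1.02), Sdha replicate 3 (5.25), Lepr replicate 2 (4.00), Thy1 replicate 4 (2.29) and Tmsb10 replicate 2 (5.96).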

How the results depend on the processing

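The number of genes called, higher, lower and turned back was 2789, 1296, 1493 and 1250. With arrays scaled to their medians it was 920, 158, 762 and 185, without the filter on dim probes 1367, 602, 765 and 512, and with the title number as a replicate block 1600, 776, 824 and 720. Without 1 array at a time the ranges were 988 to 2970, 402 to 1409, 586 to 1561 and 488 to 1396. Calls moved by over 1.5 times without 96 h replicate 1 (988), 96 h replicate 3 (1429), 48 h replicate 4 (1412) or 48 h replicate 1 (1586), rises also without 96 h replicate 2 (746), and turned-back genes also without 0 h replicate 4 (812). The causes were not tested, and leaving out an array also lowers the number of arrays. The other settings gave 2047 to 3361 calls. The replicate block by file-name number gave 3051 calls, 2227 of them shared with the 2789. Beyond the lists where the report gives its counts, it moved no list's number of rises or falls by more than 2 genes, except hypoxia and glycolysis (15 falls). In the authors' series table rises made up 55.0% of calls, against 46.5%. Differences that changed sign were those of Kdm4b, 0.05 in the main setting and up to 0.15 without 96 h replicate 1 (-0.11 with median scaling, -0.0046 with normexp, -0.011 without 96 h replicate 3), Srgn (0.042 in the series table) and, with probes averaged, Itgam (0.0062), Sumo3 (0.029), Gdf1 (-0.12) and Kdm4a (-0.42). Genes dim at 48 h or at 96 h are limited by signal over background, and the size of their differences depends on the background correction.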
